A study of Mus musculus with 8 samples.

Results

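The proneural and neurogenic basic helix-loop-helix (bHLH) transcription factors measured here were *Neurog1*, *Neurog2*, *Neurod1*, *Neurod2*, *Neurod4*, *Nhlh1*, *Nhlh2*, *Atoh1* and *Helt*, 9 genes of the 19938 that had a probe set with 1 gene symbol on a whole-transcript mouse array. They were chosen by name, with earlier results of these data known, and each was represented by its 1 probe set. RNA of the developing mouse midbrain was hybridised to 8 arrays, 2 for each of 4 groups. The lateral domain and the mdDA domain, the latter named for its meso-diencephalic dopaminergic neurons, were cut by laser from PFA-fixed coronal sections of E12.5 BAT-gal embryos (B6D2F1, mixed background; 5 embryos pooled). Embryos of the BAT-gal line carry a b-galactosidase (b-GAL) reporter driven by multimerized LEF1/TCF binding sites and a minimal promoter. Sections were stained for b-GAL and for PITX3, a transcription factor of mdDA neurons: the mdDA domain was positive for both, and the lateral domain, at the boundary of the alar and basal plates, was negative for both. The other groups were GFP+ cells sorted by FACS from Pitx3 GFP/+ embryos (C57BL/6 x 129/Ola, mixed background) of stages E13.5 or E14.5, in which 1 *Pitx3* allele carried GFP. The labels list no GFP allele for the dissected groups and no BAT-gal reporter for the sorted ones, and the number of embryos behind the sorted cells was not given in the sources used here. Embryo sex had not been determined. The 2 arrays of a group were technical replicates, so every p-value below measures the spread between arrays and not between embryos.

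Proneural bHLH factors bind E boxes in DNA as dimers with the E proteins and switch on neuronal genes and Notch ligands in progenitors leaving the cell cycle. ID factors capture the E proteins, and the HES and HEY repressors, made downstream of Notch, bind N boxes and E boxes and hold the proneural genes down. In the ventral midbrain *Neurog2* is known for its part in the birth of mdDA neurons, whereas *Helt* acts in progenitors of midbrain GABAergic neurons.

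Promoter windows were available for 9 of the 9 genes, in RefSeq's mouse assembly GRCm38.p6, and each ran from 250 bases before the listed transcription start to 50 bases after its first base. Both motifs through which these families act on one another were searched, the E box (CANNTG, which reads the same way on both strands) and the N box (CACNAG, or CTNGTG on the other strand). The windows of 3 of the 5 genes called between the domains are printed, chosen for their direction and role: *Neurog2*, the only one of the 9 that was called higher in the mdDA domain (chr3:127632886-127633185, plus strand), *Neurod4*, a differentiation factor that was lower there (first listed start, chr10:130280205-130280504, minus strand), and *Helt*, a factor of another fate that was also lower (chr8:46294622-46294921, minus strand). Capitals mark the E boxes and N boxes.
Neurog2: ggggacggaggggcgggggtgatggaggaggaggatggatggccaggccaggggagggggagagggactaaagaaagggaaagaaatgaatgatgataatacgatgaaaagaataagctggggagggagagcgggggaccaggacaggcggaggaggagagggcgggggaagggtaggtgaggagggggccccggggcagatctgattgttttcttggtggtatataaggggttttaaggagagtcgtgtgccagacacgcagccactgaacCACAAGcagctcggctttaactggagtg
Neurod4: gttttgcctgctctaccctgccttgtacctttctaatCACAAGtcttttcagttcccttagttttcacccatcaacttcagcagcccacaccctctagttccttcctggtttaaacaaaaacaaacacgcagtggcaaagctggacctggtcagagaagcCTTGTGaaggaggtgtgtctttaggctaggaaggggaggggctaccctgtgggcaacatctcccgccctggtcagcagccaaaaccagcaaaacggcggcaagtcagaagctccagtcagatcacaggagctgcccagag
Helt: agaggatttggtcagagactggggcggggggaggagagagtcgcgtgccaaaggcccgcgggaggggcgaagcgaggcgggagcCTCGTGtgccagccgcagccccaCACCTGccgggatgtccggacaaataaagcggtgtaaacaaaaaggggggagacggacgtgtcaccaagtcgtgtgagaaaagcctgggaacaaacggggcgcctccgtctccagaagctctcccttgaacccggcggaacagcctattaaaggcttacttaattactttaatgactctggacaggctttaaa

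The *Neurog2* window held no E box and 1 N box, CACAAG, which began at base 23 of the transcript. The first *Neurod4* window held 2 N boxes, beginning 213 and 90 bases before the start, and the *Helt* window held an N box 166 bases and an E box 143 bases before it. *Neurod4* had a second listed start, so the 9 genes gave 10 windows. The 2 *Neurod4* windows overlapped, and 1 N box, 90 bases before the first start and 206 before the second, was counted in both. An E box was present in 7 of these, against 72.3% of all 32851 promoter windows of the table, and an N box in 7, against 42.5%. *Nhlh2* had the most E boxes, with 4, followed by *Neurod2* with 3 and *Nhlh1* with 2. No E box overlapped an N box. These matches describe the letters of the windows and were not set against binding.

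The mdDA markers followed the labels of the groups, whereas GABAergic markers were also found in the sorted neurons. The mean log2 intensity over 5 mdDA neuron markers (*Th*, *Ddc*, *Slc18a2*, *Nr4a2*, *Pitx3*) was 5.35 to 5.44 on the lateral arrays, 8.50 to 8.53 on the mdDA arrays and 9.36 to 9.50 on the sorted arrays. The 5 GABAergic markers (*Gad1*, *Gad2*, *Slc32a1*, *Gata2*, *Gata3*) averaged 7.42 to 7.60 in the lateral domain, 4.75 to 5.03 in the mdDA domain and 5.95 to 6.49 in sorted neurons. Of these, *Slc32a1* had its highest means in the sorted neurons (E13.5, 7.67, and E14.5, 7.57), above the lateral mean of 6.44, and *Gad2* had means of 7.75 and 7.90 there against 5.30 in the mdDA domain. Progenitor markers (*Sox2*, *Sox9*, *Nes*, *Vim*, *Notch1*) ran from 8.37 to 8.38 in the lateral domain through 7.32 to 7.41 in the mdDA domain to 5.64 to 5.94 in sorted neurons. The 4 measured markers of dividing cells ran the same way, at 6.99 to 7.13, 5.54 to 5.62 and 4.14 to 4.55. In tissue and in sorted pools alike, fewer cells of a type and less RNA per cell cannot be told apart. The median intensity of all 35556 probe sets was 4.57 to 4.60 on the dissected arrays and 4.39 on each sorted array, and since no detection level was set, values under these medians are called dim below.

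**Figure D1:**
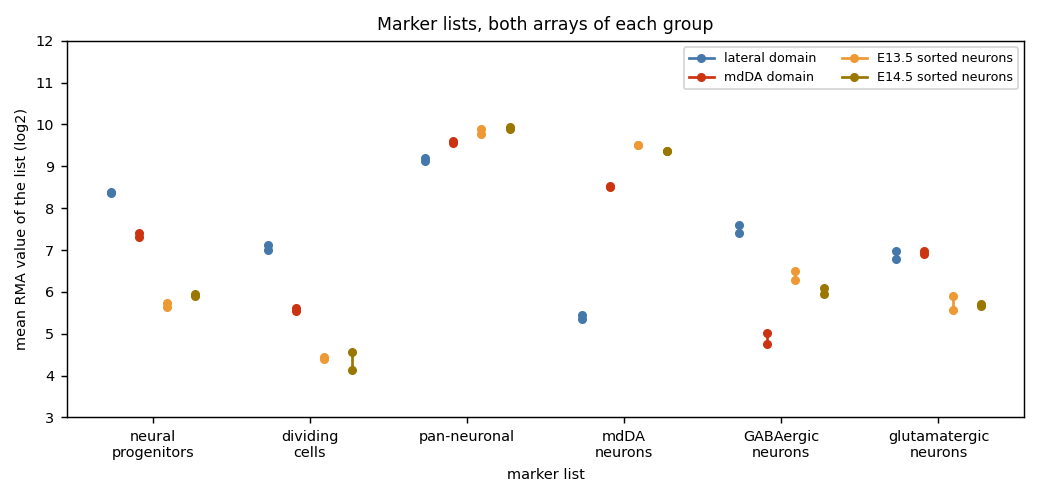
Mean log2 intensity of each cell type marker list (horizontal axis) in the 4 groups, given by colour, with a point for each of the 2 arrays of a group and a line between them. mdDA markers were lowest in the lateral domain, GABAergic markers were highest there, and progenitor and dividing-cell markers were lowest in the sorted neurons.

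The first comparison asked which of the 9 factors differed between the mdDA domain and the neighbouring lateral domain at E12.5. *Neurog2* was higher in the mdDA domain, *Neurog1*, *Neurod1*, *Neurod4* and *Helt* were lower, and *Neurod2*, *Nhlh1*, *Nhlh2* and *Atoh1* did not pass the test. In all, 5 of 9 genes were called at a false discovery rate below 10% (limma), where 2.62% of all probe sets and 2.82% of all genes with 1 symbol were called. The called share in each direction was 1.52% of probe sets for higher and 1.1% for lower, against 1 and 4 of the 9 genes. At an unadjusted p below 0.05 there were 6 of the 9 and 13.7% of all probe sets. The median log2 difference of the 9 was -0.80, beside -0.01 over all probe sets. When an array was left out, so that 1 domain kept a single array whose spread had to be assumed, limma called only *Neurog1* and *Neurod4* without either lateral array. Without either mdDA array it called 0 of the 9, with 6 at an unadjusted p below 0.05, as in the fit on all 4 arrays. In those fits 0.0422 to 0.478% of all probe sets were called.

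*Neurog1* and *Neurog2*, the neurogenins, act early in the cascade and can commit progenitors to a neuronal fate. *Neurog2* read 6.83 and 6.77 in the lateral domain, 7.86 and 7.94 in the mdDA domain, 6.53 and 6.75 in E13.5 neurons and 6.18 and 6.19 in E14.5 neurons. Both mdDA arrays were the highest of the 8, and the domains did not overlap. The gene was 2.14-fold higher in the mdDA domain, a log2 difference of 1.10 ± 0.15 (SE; limma, adjusted p = 0.0759).

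*Neurog1* went the other way. It read 6.39 and 7.13 in the lateral domain, 4.39 and 4.24 in the mdDA domain, 4.01 and 3.99 in E13.5 neurons and 4.15 and 3.98 in E14.5 neurons. Only the lateral arrays were above the median of their array, and they also differed most between themselves (SD 0.52, n = 2 arrays). *Neurog1* was 5.45-fold lower in the mdDA domain, a log2 difference of -2.45 ± 0.26 (limma, adjusted p = 0.0609). The mdDA values were dim, which leaves the size of this fall uncertain.

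The NeuroD factors act later, in cells that have begun to differentiate. *Neurod4* read 6.44 and 6.71 in the lateral domain, 4.06 and 3.92 in the mdDA domain, 3.46 and 3.32 at E13.5 and 3.56 and 3.47 at E14.5. The lateral arrays stood apart from the other 6, all of which were dim. *Neurod4* was 6.00-fold lower in the mdDA domain (-2.58 ± 0.18 on the log2 scale, limma, adjusted p = 0.0343). Its order against *Neurog1* was not secure, since without lateral array 1 *Neurog1* differed by -2.82 and *Neurod4* by -2.72.

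*Neurod1*, a differentiation factor of many neurons and of endocrine cells, read 8.05 and 8.18 in the lateral domain and 6.67 and 7.05 in the mdDA domain. In the sorted neurons it read 5.32 and 5.08 at E13.5 and 5.43 and 5.57 at E14.5. The 4 groups did not overlap, and every array was above its median. *Neurod1* was 2.38-fold lower in the mdDA than in the lateral domain (log2 difference -1.25 ± 0.16, adjusted p = 0.0720, limma). *Neurod2*, which acts in maturing neurons, varied least within this family, at 4.88 and 5.12 in the lateral and 4.85 and 4.65 in the mdDA domain, a difference of -0.25 ± 0.18 (limma, adjusted p = 0.661).

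**Figure D2:**
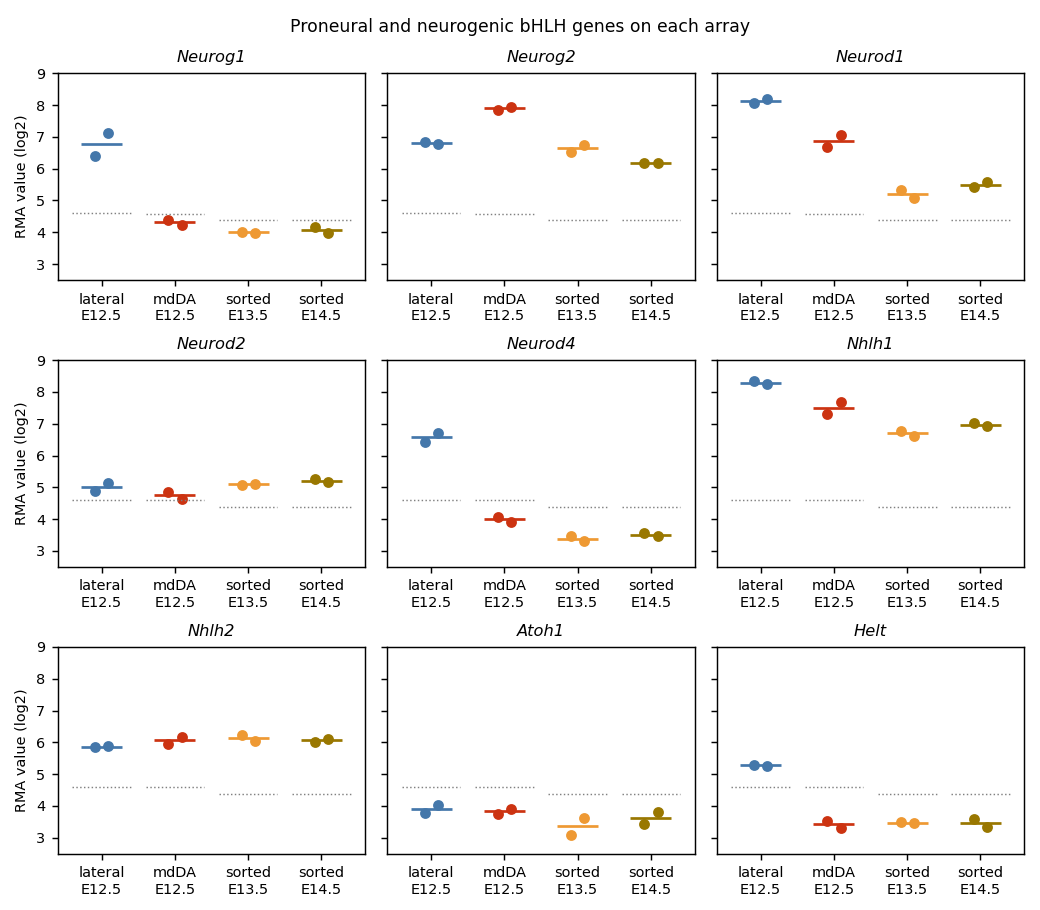
Log2 intensity (vertical axes) of each of the 9 bHLH genes on every array, in the 4 groups. Points are arrays, horizontal bars are group means of 2 arrays, and grey dotted lines are the median of all probe sets on that group's arrays; *Neurog2* was highest in the mdDA domain, whereas *Neurog1*, *Neurod4* and *Helt* were above the median only in the lateral domain.

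*Nhlh1* and *Nhlh2* are switched on in newly born neurons. *Nhlh1* read 8.33 and 8.26 in the lateral domain, 7.31 and 7.68 in the mdDA domain, 6.76 and 6.63 at E13.5 and 7.02 and 6.92 at E14.5. Its domains did not overlap, but the difference of -0.80 ± 0.18 missed the threshold (adjusted p = 0.179, limma). It passed in 3 of the 7 alternative fits on all arrays, with all 8 arrays in 1 fit, with limma's trend and robust options, and with only probe sets of 1 symbol. *Nhlh2* read 5.85 and 5.87 in the lateral domain, 5.95 and 6.18 in the mdDA domain, 6.24 and 6.05 at E13.5 and 6.02 and 6.11 at E14.5, the narrowest span of group means of the 9 genes (0.28). The difference between domains was 0.20 ± 0.15 (adjusted p = 0.678, limma).

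*Helt* and *Atoh1* mark other fates than the dopaminergic one, *Atoh1* being known from the rhombic lip of the hindbrain. *Helt* read 5.30 and 5.27 in the lateral domain, 3.54 and 3.30 in the mdDA domain, 3.50 and 3.45 at E13.5 and 3.59 and 3.34 at E14.5. The lateral arrays were again alone above the median, and the other 3 groups overlapped. *Helt* was 3.64-fold lower in the mdDA domain, where its values were dim (-1.86 ± 0.15 on the log2 scale, limma, adjusted p = 0.0445). *Atoh1* was dim on all 8 arrays, at 3.78 and 4.03 in the lateral domain, 3.76 and 3.90 in the mdDA domain, 3.08 and 3.63 at E13.5 and 3.42 and 3.81 at E14.5. The domains overlapped (log2 difference -0.07 ± 0.15, adjusted p = 0.903, limma).

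Markers of cell types also differed between the domains. In the same comparison 5 of 5 GABAergic, 3 of 5 progenitor and 3 of 4 dividing-cell markers were called lower in the mdDA domain. Called higher were 4 of 5 mdDA markers, beside 1.1% of all probe sets called lower and 1.52% higher. The rest of these lists went the same way uncalled, *Nes* by -0.28, *Vim* by -0.53, *Cdk1* by -0.935 and *Pitx3* by 0.67. *Pitx3* (adjusted p = 0.228, limma) is reported by the paper as enriched at the same false discovery rate. Of 3 glutamatergic markers 0 were called. The part of these markers in the differences of the 9 genes was not tested.

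The second comparison set the sorted Pitx3 GFP/+ neurons of both stages against the mdDA domain. *Neurog2*, *Neurod1*, *Neurod4* and *Nhlh1* were lower in the sorted neurons and *Neurod2* was higher, while *Neurog1*, *Nhlh2*, *Atoh1* and *Helt* did not pass. These 5 of 9 calls stand beside 18.4% of all probe sets called (9.84% lower and 8.53% higher) and 17.6% of genes with 1 symbol. The median log2 difference of the 9 genes was -0.34, beside -0.08 over all probe sets. Centring each array on its median moved the latter to 0.12 and the share of higher ones among all called probe sets from 46.4 to 75.8%. The dissected and the sorted samples differed in stage, strain, reporter and isolation at once, which cannot be told apart from the group.

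*Neurog2* was 2.81-fold lower in the sorted neurons (log2 difference -1.49 ± 0.11, adjusted p = 0.00214, limma), and all 4 sorted arrays were below both mdDA arrays. *Neurod1* was 2.85-fold lower (-1.51 ± 0.15, adjusted p = 0.00487, limma), also without overlap. These 2 falls passed in each of 8 alternative fits, those with sorted neurons of 1 stage alone included, and in each of 6 that left out 1 array. *Nhlh1* was 1.58-fold lower (-0.66 ± 0.13, adjusted p = 0.0297, limma) and lost the call without mdDA array 2 (adjusted p = 0.137). *Neurod4*, dim on all 6 arrays involved, was 1.45-fold lower (-0.54 ± 0.12, adjusted p = 0.0425, limma).

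The *Neurod4* call was lost without either mdDA array, with arrays centred on their medians (log2 difference -0.34, adjusted p = 0.125), with quantile normalization repeated (-0.35, adjusted p = 0.153) and with E14.5 neurons alone (adjusted p = 0.101). *Neurod2* was 1.32-fold higher in sorted neurons (log2 difference 0.41 ± 0.12, adjusted p = 0.0894, limma), at 5.09 and 5.10 at E13.5 and 5.28 and 5.15 at E14.5. Its sorted arrays were all above the mdDA arrays but overlapped the lateral ones. This call was lost in each of the 6 fits without 1 array and in 4 of the 8 other alternatives. These were the replicate number as a block (adjusted p = 0.134), limma's trend and robust options (adjusted p = 0.133), E13.5 neurons alone (adjusted p = 0.205) and E14.5 neurons alone (adjusted p = 0.105). Without mdDA array 1, *Neurog2* differed by -1.53, *Neurod1* by -1.70, *Nhlh1* by -0.84, *Neurod4* by -0.47 and *Neurod2* by 0.51. Without mdDA array 2 these genes differed by -1.45, -1.32, -0.48, -0.60 and 0.30, in the same order.

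Of the genes that did not pass, *Neurog1* differed by -0.28 ± 0.21 (adjusted p = 0.429, limma) and *Atoh1* by -0.34 ± 0.20 (adjusted p = 0.317, limma). *Nhlh2* differed by 0.04 ± 0.12 (adjusted p = 0.855, limma) and *Helt* by 0.05 ± 0.13 (adjusted p = 0.830, limma). All but *Nhlh2* were dim in both the mdDA domain and the sorted neurons. In this comparison 5 of 5 progenitor, 3 of 4 dividing-cell, 2 of 3 endothelial and 1 of 3 glutamatergic markers were called lower in sorted neurons. The glutamatergic one was *Pou4f1*, at a mean of 4.89 against 7.80 in the mdDA domain (-2.91, adjusted p = 0.00169, limma). Both measured erythroid markers were also called lower (list means of 8.06 to 8.17 in the mdDA domain and 4.23 to 4.40 in sorted neurons). Called higher were 4 of 5 GABAergic, 3 of 5 mdDA and 2 of 5 pan-neuronal markers. Over all probe sets 9.84% were called lower and 8.53% higher. The part of these markers in the results of the bHLH genes was not tested.

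**Figure D3:**
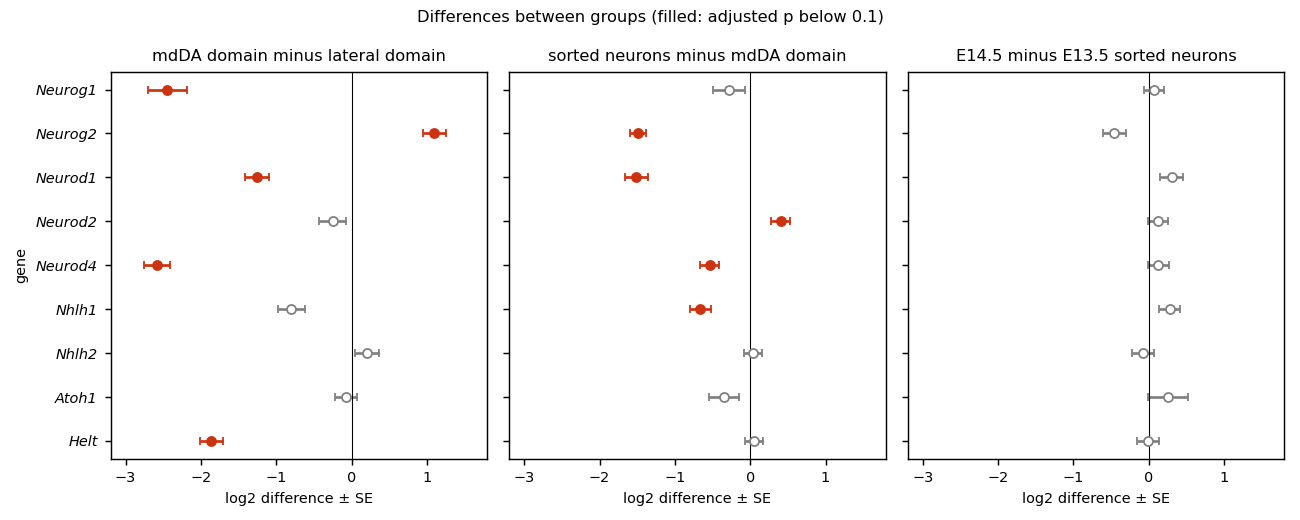
Log2 difference (horizontal axes) of each of the 9 bHLH genes in the 3 comparisons, with bars for its standard error. Filled red points have an adjusted p below 0.1 in limma: 5 between the domains, 5 between sorted neurons and the mdDA domain, and 0 between E14.5 and E13.5 neurons.

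The third comparison asked what differed between E14.5 and E13.5 neurons. By limma 0 of the 9 genes and 0 of all probe sets (0%) were called, and 6.06% of probe sets had an unadjusted p below 0.05. *Neurog2* was the only one of the 9 with such a p (0.0345), at -0.46 ± 0.15 and without overlap between the stages (adjusted p = 0.791, limma). *Neurod1* and *Nhlh1* differed by 0.30 ± 0.16 and 0.28 ± 0.14 and did not overlap either (adjusted p = 0.864 and 0.859, limma). The other 6 differed by -0.08 to 0.26, and of these *Neurod2* and *Neurod4* did not overlap, by gaps of 0.053 and 0.01. In all, 5 of the 9 genes did not overlap. With 2 arrays a stage this is a weak criterion, and its share over all probe sets was not counted. With all 8 arrays in 1 fit 20 probe sets were called and still 0 of the 9 genes.

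The order of the 4 group means separated the genes. *Neurod1*, *Neurod4* and *Nhlh1* shared the order lateral domain, mdDA domain, E14.5, E13.5 with no overlap between neighbours, although the last 2 groups were 0.01 apart for *Neurod4*. *Neurog1* had this order too, but its sorted groups overlapped. Between E14.5 and E13.5 none of the 9 genes was called, and *Nhlh1* was not called between the domains. *Neurog2* alone had the order mdDA domain, lateral domain, E13.5, E14.5, and here the lateral and E13.5 arrays were only 0.02 apart. *Neurod2* had its highest mean at E14.5 and its lowest in the mdDA domain. No neighbouring groups of *Atoh1* were separate.

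Over the 8 arrays, which share pools within a group, the levels of *Neurog1* and *Neurod4* had a Pearson correlation of 0.991, and those of *Neurod1* and *Nhlh1* one of 0.987. *Helt* correlated with *Neurod4* at 0.975 and with *Neurog1* at 0.975. *Neurog2* correlated with none of the other 8 genes above 0.42, and at -0.90 with *Neurod2*. With 4 groups these values mostly describe the order of group means.

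The partners and inhibitors of bHLH factors were read in the same fits, in which 1.1% of all probe sets were called lower and 1.52% higher between the domains, and 9.84% lower and 8.53% higher in sorted neurons. Nothing particular to a list is read from its counts beside these shares. Of 7 E protein and ID genes, 0 were higher and 1 lower in the mdDA than in the lateral domain, *Id2* (-1.43, adjusted p = 0.0568, limma). *Tcf12* and *Tcf4*, the E proteins with the highest levels, differed by 0.51 (adjusted p = 0.261) and -0.39 (adjusted p = 0.375, limma). In sorted neurons against the mdDA domain 1 was higher, *Tcf4* (0.60, adjusted p = 0.0423), and 3 were lower. These were the inhibitors *Id3* (-2.67, adjusted p = 0.00292) and *Id4* (-1.07, adjusted p = 0.0210) and, by a small step, *Tcf12* (-0.36, adjusted p = 0.0800, limma). The median of the list was -0.30 between the domains and -0.08 between sorted neurons and the mdDA domain.

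Of 7 HES and HEY repressors 0 were called between the domains (limma; 2 had an unadjusted p below 0.05), where *Hes5* differed by -0.45 (adjusted p = 0.306) and *Hey1* by 0.44 (adjusted p = 0.323). In sorted neurons 4 were lower and 0 higher: *Hey1* (-1.65, adjusted p = 0.00389), *Hes1* (-0.80, adjusted p = 0.0872), *Hes5* (-0.74, adjusted p = 0.0229) and *Heyl* (-0.43, adjusted p = 0.0995, limma). *Hes1* and *Hes5* are the classical Notch targets of neural progenitors.

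Of 16 genes known to be induced with or by proneural factors, 0 were higher and 1 lower in the mdDA domain, *Gadd45g* (-1.15, adjusted p = 0.0849, limma), with a list median of -0.59. *Dcx* and *Ebf3*, the members of that list with the highest levels, differed by 0.18 and 0.10 (adjusted p = 0.711 and 0.860, limma). In sorted neurons 1 was higher, the transcription factor *Ebf2* (0.62, adjusted p = 0.0197), and 4 were lower, with a median of -0.03. The lower ones were *Mfng*, a modifier of Notch (-1.73, adjusted p = 0.00951), the Notch ligand genes *Dll3* (-0.85, adjusted p = 0.0470) and *Dll4* (-0.49, adjusted p = 0.0924), and *Ebf1* (-0.64, adjusted p = 0.0204, limma).

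The list of other neural bHLH genes had 12 measured members. Between the domains 2 were lower and 0 higher, and *Ferd3l* was among those not called (0.61, adjusted p = 0.204, limma). *Tal2*, a factor of midbrain GABAergic neurons, had a mean of 8.96 in the lateral and 3.99 in the mdDA domain (-4.97, adjusted p = 0.0224), and *Bhlhe23* differed by -1.06 (adjusted p = 0.0785, limma). In sorted neurons *Neurod6* was higher, at a mean of 5.10 against 3.40 in the mdDA domain (1.70, adjusted p = 0.00991), and *Neurog3*, dim in both, was lower (-0.39, adjusted p = 0.0772, limma). None of the 42 genes on the 4 lists was called between E14.5 and E13.5 neurons by limma; 4 had an unadjusted p below 0.05.

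**Figure D4:**
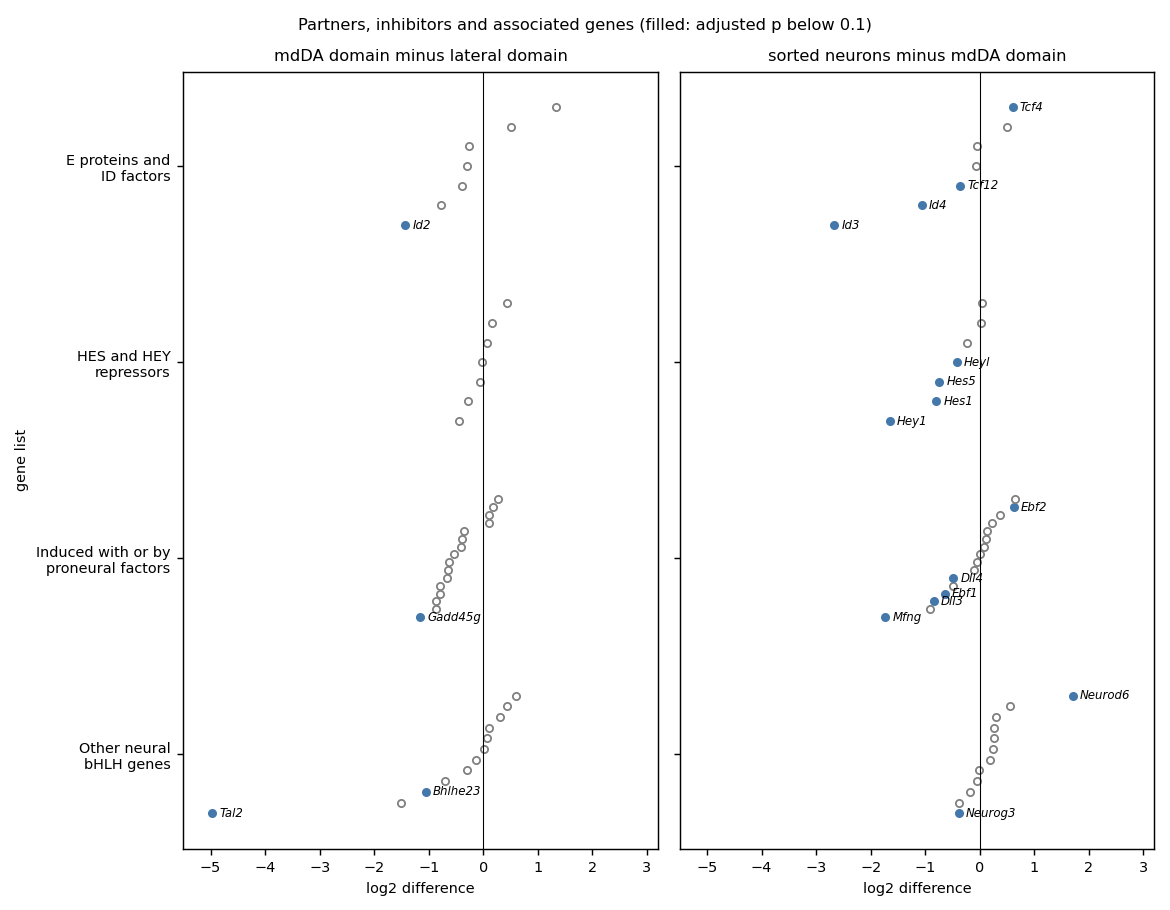
Log2 difference (horizontal axes) of each gene on the 4 lists of partners, inhibitors and associated genes, between the domains and between sorted neurons and the mdDA domain. Filled, named points have an adjusted p below 0.1 in limma; 4 genes were called between the domains, all lower in the mdDA domain, and 15 between sorted neurons and the mdDA domain.

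Genes with the most similar profile over the 8 arrays were sought among 2380 genes whose group means spanned at least 1 on the log2 scale. Those closest to *Neurog1* were *Kif18a*, a mitotic kinesin (r = 0.993), *Hs3st3a1* (r = 0.992) and *Neurod4* (r = 0.991). Closest to *Neurod4* were *Kif18a* (r = 0.994), *Denn2b* (r = 0.993) and *Lrp2* (r = 0.993). *Neurod1* was closest to *Jam2* (r = 0.995), *Qk* (r = 0.994) and *Tead2* (r = 0.991), and *Nhlh1* to *Gpx8* (r = 0.993), the progenitor factor *Sox2* (r = 0.991) and *Rbl1* (r = 0.988). *Helt* was closest to *Ednrb* (r = 0.996), *4930412O13Rik* (r = 0.993) and *Tal2* (r = 0.988). *Neurog2*, which peaked in the mdDA domain, was closest to *Islr2* (r = 0.980), *Ptprm* (r = 0.979) and *Mast4* (r = 0.972). The correlations are descriptions over 8 arrays of 4 pools and carry no test.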

How the data were processed

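The deposited values were log2 intensities per probe set, which the authors made by RMA with sketch-quantile normalization in Affymetrix Expression Console 1.2. The genome build was not given in the sources used here. Quantile normalization gives the arrays it treats together like distributions, so a shift common to most genes would not be seen among them. Dim values are compressed. Dissected and sorted arrays did not share a distribution, with medians of 4.57 to 4.60 and of 4.39, so an offset between them remained. Repeating the normalization moved the median log2 difference of sorted neurons against the mdDA domain over all probe sets from -0.08 to 0.02. The share of probe sets called in that comparison moved from 18.4 to 14.6%. The cause of this offset was not tested. Of 35556 probe sets, 21789 had 1 gene symbol, 1621 several and 12146 none in the platform annotation.

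Samples were grouped by the labels, 2 arrays a group. Differences were tested with limma 3.58.1 (R 4.3.3; lmFit, eBayes, two-sided) with Benjamini-Hochberg adjustment over the whole array, and calls were made at a false discovery rate below 10%. The domains were compared on their 4 arrays with the replicate number as a block, since the methods name a paired test without defining the pairs. Sorted neurons (mean of both stages) were compared with the mdDA domain using the 8 arrays, and the later stage with the earlier one on 4, without a block. Deviations of same-numbered arrays correlated at -0.04 to 0.01 between groups, so the numbers did not visibly pair the arrays. The fit was tested on simulated data.

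Members, gene lists and markers were chosen with earlier results of these data known. Besides the 9 members, genes were named by rule: per list and comparison up to 4 called genes with the largest difference or, with fewer than 2 called, the 2 with the highest mean level, and per member whose group means spanned at least 1 the 3 best-correlated genes. The rule did not name *Id2*, *Gadd45g* and *Dll4*, which were added with their values known, to complete a count. *Ferd3l* was added because the paper reports it as enriched, although it was not called between the domains here. Single markers were named with their values known. Alternatives covered the block, the arrays fitted, normalization, dim probe sets, limma's options, the probe sets tested, single arrays and the threshold. The number of arrays limits the precision.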

Additional observations from a re-analysis of the deposited data

How the results depend on the processing

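Between the domains, the 5 bHLH genes called were called in each of the 7 alternative fits on all arrays at 10%, and 2 (*Neurod4*, *Helt*) at a false discovery rate below 5%. Leaving out 1 array gave 0 to 2 (2 without either lateral array, 0 without either mdDA array), where a single array stood for a domain and was assumed to vary like the other. The fits with 1 array left out also lacked the replicate block. On all 4 arrays without that block the count stayed at 5. For sorted neurons against the mdDA domain, where 5 were called, the replicate block gave 4. E14.5 neurons alone, an alternative chosen after seeing the data, gave 3. The share called over all probe sets fell too, from 18.4% to 15.8% with the block and 14.3% with E14.5 neurons alone. Over all alternatives, those without 1 array included, *Neurog2* ranged from -1.72 to -1.26 and *Neurod1* from -1.70 to -1.32. *Nhlh1* ranged from -0.84 to -0.46, *Neurod4* from -0.60 to -0.34 and *Neurod2* from 0.30 to 0.60. For E14.5 against E13.5 the count was 0 in each alternative, the replicate block included. Of the 42 genes on the other lists, 4 were called between the domains, 9 with no replicate block and 8 with all 8 arrays in 1 fit. Without dim probe sets only 31 of them were tested and 7 called. The count was 11 with trend and robust options, 18 with only probe sets of 1 symbol and 1 at 5%. The share called over all features tested rose as well, from 2.62% to 4.03% with no replicate block, 3.7% with 8 arrays, 7.91% without dim probe sets, 4.63% with trend and robust options and 11.5% with probe sets of 1 symbol. In sorted neurons 15 were called, 10 with the replicate block, 5 to 14 without single arrays and 9 with E13.5 neurons alone. Here too the share called over all probe sets fell, from 18.4% to 15.8% with the block and 12.6% with E13.5 neurons alone. The causes of these shifts were not tested.

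Signs turned only when single arrays were left out and only for 7 differences that were not called. Between the domains *Atoh1* ranged from -0.20 to 0.0525. In sorted neurons against the mdDA domain *Nhlh2* ranged from -0.0753 to 0.16 and *Helt* from -0.0713 to 0.17. Between the stages *Neurog1* ranged from -0.0155 to 0.15, *Nhlh2* from -0.17 to 0.018, *Atoh1* from -0.016 to 0.53 and *Helt* from -0.13 to 0.11. No gene of the 9 had another probe set, so that alternative had nothing to run. With 2 arrays of 1 pool a group, variation between embryos was not measured, and dim values limit the falls of *Neurog1*, *Neurod4* and *Helt*.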
